A study of Mus musculus with 3 samples.

Results

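The 732 regions described here were the autosomal stretches of open chromatin with the highest relative signal in GFP-labelled dorsal skin nuclei of UVB-irradiated mice. Each of 315694 features, 500 bp long, was summed over the nuclei of a condition and scaled by the total count of that condition to CPM, the usual unit for libraries of unequal depth. A region was kept when it had at least 50 UVB counts and at least 4 times the CPM of both telogen and anagen, with a count of 0 set to 3. Of 63348 autosomal features with at least 50 UVB counts, 732 met this rule (1.16%). The UVB signal and its ratio to the other conditions therefore chose the regions and are given as description. With telogen in the place of UVB, the rule kept 85 of 19697 features (0.432%), and with anagen it kept 2924 of 47098 (6.21%).

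The study profiled chromatin accessibility in single nuclei of mice of the strain Dct-rtTA; Tre-H2B-GFP, where a nuclear GFP is driven by the pigment cell promoter of Dct once doxycycline is given. The UVB material was a pool of 24 mice given doxycycline for 5 days and irradiated on the back at 2.2 mJ/cm2, 3 times in a week, and was run as a pair of technical replicates that share 1 matrix. Telogen skin came from 12 mice given doxycycline for 5 days, and anagen skin from 8 mice depilated with Nair and then given doxycycline for 5 days, both in 1 library. The mice were 7 weeks old by the treatment text and 8 weeks old by the sample characteristics, animals were pooled in every condition, and GFP-positive nuclei were sorted. Each condition was thus 1 sample, no test between conditions was possible, and UVB irradiation cannot be told apart from the library it was run in.

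Melanocyte stem cells rest in the hair follicle during telogen, the quiescent phase of the hair cycle, and supply pigment-making melanocytes to the growing hair in anagen. UVB, the part of sunlight that tans and burns skin, also draws melanocytes from the follicle into the epidermis. Open chromatin marks promoters and distal elements such as enhancers. Promoters tend to be open in many cell types, and distal elements tend to be open in fewer.

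After each barcode was counted once per condition, the matrices held 6553 UVB nuclei with 16182770 counts, 2042 telogen nuclei with 5225945 counts and 3753 anagen nuclei with 10397896 counts. Median counts per nucleus were 1726 in UVB, 1650 in telogen and 1577 in anagen, and 506 barcodes occurred in more than 1 condition. Values per feature and nucleus ran from 1 to 4, and 61.1% of them were 2, so counts were not independent events. The 95% intervals below cover counting error only and are too narrow for this reason. Barcodes also carried a tag number of unstated meaning, and number 19, 1 of 21 left in UVB after each barcode was counted once, held 2934 of the UVB nuclei (44.8%).

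Few of the regions lay at gene starts. A RefSeq promoter window was overlapped by 8 of the 732 regions, and such a window spans 250 bases before to 50 after a gene start. The 250 bases before the start are shown for 3 of these (RefSeq, GRCm38.p6), as examples of windows with an E-box or an AP-1 motif. They are Gm34439, an uncharacterised gene (chr13:53787725-53787974, minus strand), Gm30327, another (chr1:153990967-153991216, plus strand), and Cpa4, which encodes a carboxypeptidase (chr6:30568119-30568368, plus strand). Capitals mark matches on either strand to CACGTG or CATGTG, the E-box type bound by the melanocyte regulator MITF, and to TGANTCA, the AP-1 motif.
Gm34439: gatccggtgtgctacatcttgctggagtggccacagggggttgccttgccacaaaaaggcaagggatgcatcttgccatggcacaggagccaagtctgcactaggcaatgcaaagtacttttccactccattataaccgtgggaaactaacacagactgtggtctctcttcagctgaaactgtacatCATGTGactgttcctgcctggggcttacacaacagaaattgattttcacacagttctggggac
Gm30327: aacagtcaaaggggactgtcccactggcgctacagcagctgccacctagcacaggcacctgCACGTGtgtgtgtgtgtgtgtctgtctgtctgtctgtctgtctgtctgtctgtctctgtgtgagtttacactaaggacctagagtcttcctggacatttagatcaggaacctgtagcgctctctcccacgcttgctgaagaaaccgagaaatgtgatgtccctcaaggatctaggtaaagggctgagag
Cpa4: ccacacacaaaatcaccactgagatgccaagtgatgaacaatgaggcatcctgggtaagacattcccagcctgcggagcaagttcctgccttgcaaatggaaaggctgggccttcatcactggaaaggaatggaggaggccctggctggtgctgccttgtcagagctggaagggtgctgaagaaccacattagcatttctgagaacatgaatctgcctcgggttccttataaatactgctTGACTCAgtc
An E-box of this type was in 20.4% of all 32817 promoter windows and the AP-1 motif in 7.81%, and among promoter windows at eligible features, those with at least 50 UVB counts, the shares were 17.2% and 5.31%. The 8 regions overlapped 10 windows, of which 4 held the E-box and 1 the AP-1 motif. Of the 4, 2 are overlapping Gm34439 windows that share 1 match, and the others are those of Gm30327 and Gm35692. A match is a description of the letters and shows no binding. The Gm34439 region had 243 counts in UVB, 13 in telogen and 26 in anagen, and 93.8% of its UVB counts lay in melanocyte-like nuclei. The Gm30327 region had 153 counts in UVB, 9 in telogen and 14 in anagen, and 79.7% of its UVB counts lay in melanocyte-like nuclei. The Cpa4 region had 95 counts in UVB, 4 in telogen and 8 in anagen, and its largest share, 41.1%, was in keratinocyte-like nuclei. The other windows overlapped were those of Gm32316, Gria4 with Gm46100, Gm30423, 3100003L05Rik and Gm35692.

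The regions were unevenly placed with respect to genes. Of the 732 regions, 7 (0.956%) had their middle within 1 kb of a protein-coding gene end, against 26.7% of the eligible features. Inside a protein-coding gene lay 33.3% of the regions and 55.3% of the eligible features. More than 100 kb outside any protein-coding gene lay 33.9% of the regions and 7.68% of the eligible features. The median distance to a gene end was 81033 bp for the regions and 9256 bp for the eligible features. Signal was alike in both sets, with a median of 99 UVB counts for the regions and 100 for the eligible features. Neighbouring regions are not independent of each other, and the shares were not tested.

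**Figure D1:**
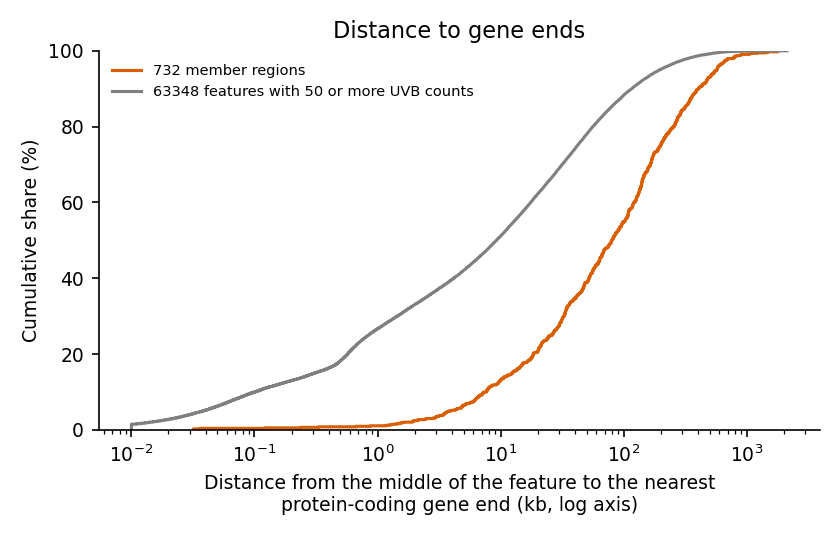
Cumulative share of features (y axis, %) by distance from the middle of the feature to the nearest protein-coding gene end (x axis, kb, log axis), for the 732 regions (orange) and all 63348 eligible features (grey). At 1 kb the curves stand at 0.956% and 26.7%.

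By chromosome, the regions made up from 0.541% of the eligible features on chromosome 7 to 1.86% on chromosome 18. There were 90 runs in which regions followed each other within 50 kb, and they held 209 of the 732 regions. How many eligible features lie in such runs was not counted, so this number has no background beside it. The regions had 531 nearest genes, of which 41 had at least 3 regions. Macrod2, which encodes an enzyme that removes ADP-ribose from proteins, had 10 of its 55 eligible features among the regions. Vps41, a subunit of the complex that tethers late endosomes and lysosomes, had 5 of 7, and Nr2f1, an orphan nuclear receptor, had 5 of 19. Jag1, a Notch ligand, and Got2, a mitochondrial aspartate aminotransferase, had 6 each, of 41 and 17 eligible features.

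Across all nuclei, the regions took up 0.727% of UVB counts, 0.115% of telogen counts and 0.128% of anagen counts. The ratio of UVB to the higher of the other conditions ran from 4.00 to 22.9, with a median of 5.02, and 72 regions reached 8. Of the eligible features, 9.28% reached 4 times telogen and 7.66% reached 4 times anagen, and the 732 regions reached both. Anagen was the higher of the other conditions for 441 regions and telogen for 291. In telogen 34 of the regions had no count and in anagen 8 had none, where 3 counts correspond to 0.574 and 0.289 CPM. With each nucleus counted as open or closed, 376 features met the rule, 323 of them among the 732. Without tag number 19, 1300 met it, 447 of them among the 732. For 52 regions the lower interval end was above 4 over both other conditions. Just inside the 4-fold lay regions nearest Tenm2, Scrg1 and 4930544G11Rik, with ratios of 4.0007, 4.0034 and 4.0044. Just outside it lay features nearest Tyrp1, Rpl37a and Pgrmc2, with ratios of 3.9977, 3.9963 and 3.9915.

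Each region was open in 23 to 635 UVB nuclei, with a median of 54, and 685 of the 732 had counts in at least 5 tag numbers. To see which nuclei carried them, nuclei of all conditions were clustered with the regions and all features within 5 kb of them left out. Of 11 clusters, 3 were melanocyte-like, numbers 2, 3 and 7. Of 13 melanocyte marker genes, 9, 5 and 12 were at least 2-fold above the other nuclei in clusters 2, 3 and 7. The median log2 fold of melanocyte markers was 1.19 in cluster 2 and 0.823 in cluster 3. Schwann markers came next, at 0.279 and 0.318. None of the melanocyte markers was among the 10 leading genes of cluster 2 or 3, and 1 was in cluster 7. Cluster 2 held 1480 UVB, 120 telogen and 167 anagen nuclei, and cluster 3 held 1445 UVB, 100 telogen and 182 anagen nuclei. Cluster 7 held 38 UVB, 3 telogen and 788 anagen nuclei. The labelled GFP sort thus held other skin cells too, as 54.8% of UVB, 89.1% of telogen and 69.7% of anagen nuclei were not melanocyte-like.

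Melanocyte-like nuclei carried most of the signal. They held 77.9% of the UVB counts of the regions, against 40.4% of all UVB counts and 43.0% of the UVB counts of eligible features. At a finer clustering, with resolution 1.0 in place of 0.6, the nuclei named melanocyte-like held 50.9% of them. There a cluster of 1066 UVB, 87 telogen and 163 anagen nuclei scored highest for melanocyte markers, 5 of them at least 2-fold up, but stayed unnamed because Rgs5, a pericyte marker, was among its 10 leading genes. Assigned to the class with most of its UVB counts, 577 regions (78.8%) were carried by melanocyte-like nuclei, 55 by fibroblast-like, 44 by keratinocyte-like, 39 by hair follicle keratinocyte-like and 17 by Schwann-like nuclei. No region was carried by endothelial-like or myeloid-like nuclei. This assignment goes by counts and so depends on the size of a class, and it was not made for the eligible features. The median share of UVB counts in melanocyte-like nuclei was 84.2% for the regions and 37.9% for the eligible features. The carrying class also had the highest UVB CPM for 519 of the 577 melanocyte-carried regions, 51 of the 55 fibroblast-carried, 35 of the 44 keratinocyte-carried, and all of the 39 and 17 carried by hair follicle keratinocyte-like and Schwann-like nuclei.

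**Figure D2:**
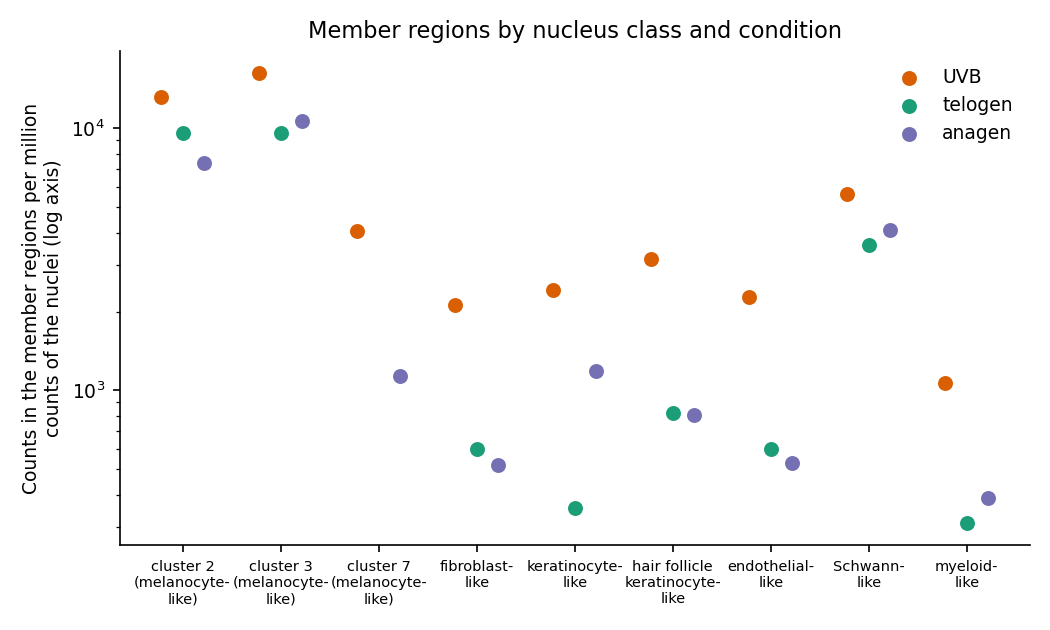
Summed CPM of the 732 regions (y axis, log axis), relative to all counts of the same nuclei, by cluster or class of nuclei (x axis), for UVB (orange), telogen (green) and anagen (purple). Each point is 1 sum over all nuclei of a class, with no replicate, and the 3 telogen nuclei of cluster 7 are not drawn. Clusters 2 and 3 stand highest in all conditions, and the anagen nuclei of cluster 7 lie at 1134 CPM.

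Summed over the regions, counts were found within clusters 2 and 3 in every condition. Of the 577 regions carried by melanocyte-like nuclei, 116 had no count there in telogen and 76 had none in anagen. Among regions with at least 50 UVB counts in these clusters, 71 of 496 had none in telogen and 44 had none in anagen. Among all features with as many, 1827 of 24559 had none in telogen and 602 had none in anagen. The summed level of the 732 regions was 14393 CPM in UVB, 9596 CPM in telogen and 8559 CPM in anagen. UVB over telogen was 1.50 (interval 1.45 to 1.55) and UVB over anagen was 1.68 (1.63 to 1.73), against 6.30 and 5.69 over all nuclei. In cluster 7, where most anagen melanocyte-like nuclei lay, the level was 4067 CPM in the 38 UVB nuclei and 1134 CPM in the 788 anagen nuclei. The share of nuclei in clusters 2 and 3 was 44.6% in UVB, 10.8% in telogen and 9.30% in anagen. The part of this share in the ratio over all nuclei was not tested.

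For the regions with at least 50 UVB counts in clusters 2 and 3, 55 of 496 had an interval wholly above 1 over telogen (background 4.07% of 24559 features). Over anagen, 146 of the 496 did so (background 10.1%). These shares were 11.1% and 29.4%, and since the regions were chosen on the same contrast they carry no independent weight. Below 1, the interval was wholly so for 0 of the 496 over telogen (background 5.85%) and 1 over anagen (background 6.74%). Thinned to 1000 counts, the kept nuclei of clusters 2 and 3 had a mean of 15.3 counts in the regions in UVB (2474 nuclei), 9.67 in telogen (155 nuclei) and 8.66 in anagen (238 nuclei). That left out 451 UVB, 65 telogen and 111 anagen nuclei.

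Tag numbers gave a view of the spread within a condition, although nothing ties them to mice. Over the 15 UVB tag numbers with at least 20 nuclei of clusters 2 and 3, the level ran from 9885 to 16294 CPM with a median of 14300. The 3 such telogen tag numbers ran from 8970 to 10663 CPM, and the 6 of anagen from 4116 to 10888 CPM. The ranges overlapped at their ends.

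**Figure D3:**
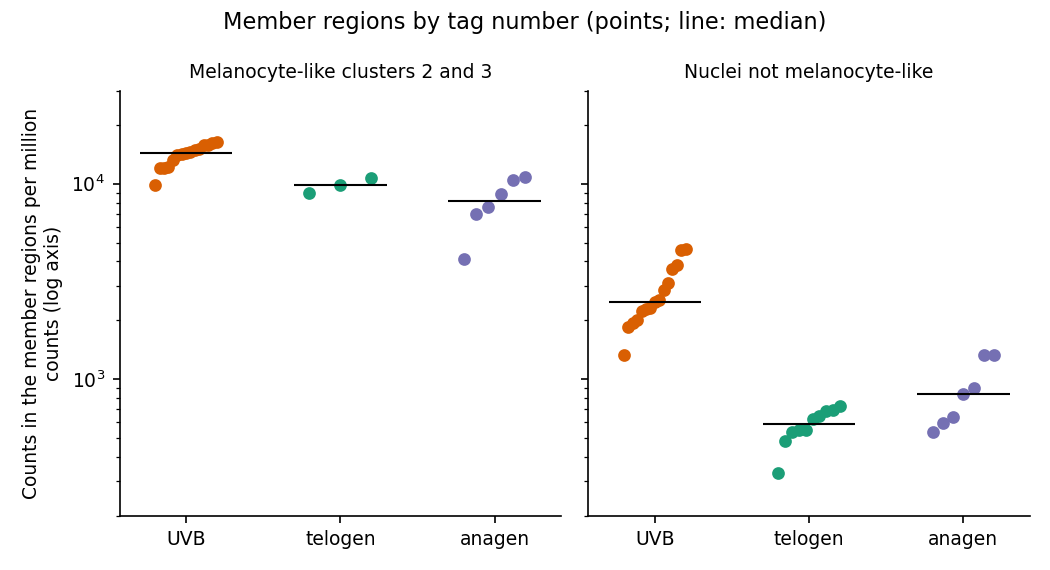
Summed CPM of the 732 regions (y axis, log axis) for each tag number with at least 20 nuclei of the set (points) and their median (line), in UVB (orange), telogen (green) and anagen (purple). In clusters 2 and 3 (left) the medians are 14300, 9908 and 8200 CPM, and in nuclei that were not melanocyte-like (right) they are 2488, 586 and 842 CPM.

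Nuclei that were not melanocyte-like also had more counts in the regions in UVB, at 2690 CPM, than in telogen, at 583 CPM, or anagen, at 648 CPM. The level in melanocyte-like nuclei was 5.22 times that of the other nuclei in UVB, 16.2 times in telogen and 3.09 times in anagen. For clusters 2 and 3 alone it was 5.35 times in UVB, 16.5 times in telogen and 13.2 times in anagen. Outside melanocyte-like nuclei, the 577 melanocyte-carried regions stood highest in Schwann-like nuclei, at 4476 CPM in UVB, 3150 CPM in telogen and 3614 CPM in anagen. Counts in the 577 melanocyte-carried regions were found in endothelial-like nuclei at 2084 CPM in UVB, 547 CPM in telogen and 449 CPM in anagen. In myeloid-like nuclei they stood at 888 CPM in UVB, 282 CPM in telogen and 328 CPM in anagen. Whether free DNA from melanocyte-like nuclei contributed to these counts was not tested.

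The region with the most counts lay 27.2 kb from Emcn, which encodes an endothelial sialoglycoprotein (chr3:137313649-137314149). It had 1334 counts in UVB, 71 in telogen and 151 in anagen, or 82.4, 13.6 and 14.5 CPM. It was highest in UVB by 6.07-fold over telogen (4.78 to 7.82) and 5.68-fold over anagen (4.79 to 6.76). Of its UVB counts, 89.9% were in melanocyte-like nuclei, and within clusters 2 and 3 it stood at 188 CPM in UVB, 125 CPM in telogen and 152 CPM in anagen. A region inside Grik3, which encodes a kainate-type glutamate receptor subunit, had 1215 UVB, 88 telogen and 177 anagen counts. Within clusters 2 and 3 that region was at 156 CPM in UVB, 147 CPM in telogen and 133 CPM in anagen, and both intervals of its ratios held 1.

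A region inside Dnm3, a dynamin gene, had 1136 UVB, 62 telogen and 133 anagen counts. One inside Slc2a9, which encodes a urate transporter, had 906 UVB, 49 telogen and 88 anagen counts. Its level within clusters 2 and 3 was 127 CPM in UVB, 61.1 CPM in telogen and 93.8 CPM in anagen, and UVB was 2.08 times telogen (1.34 to 3.43). The others of the 10 most counted regions were nearest Anks1b, Csmd1, Macrod2 with 2 regions, Lurap1l and Rbms3, each carried by melanocyte-like nuclei.

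Of the 10 regions with the highest ratios among those with at least 100 UVB counts, 8 were carried by melanocyte-like nuclei. The first, 772.7 kb from Got2, had 154 counts in UVB, 2 in telogen and 6 in anagen, and 132 of the UVB counts were in clusters 2 and 3. A region inside Ppargc1a, which encodes a coactivator of mitochondrial gene expression, had 444 counts in UVB, 13 in telogen and 23 in anagen (27.4, 2.49 and 2.21 CPM). Within clusters 2 and 3 it was at 61.1 CPM in UVB, 21.4 CPM in telogen and 30.1 CPM in anagen. Its UVB level there was 2.86 times telogen (1.37 to 7.15) and 2.03 times anagen (1.25 to 3.52), and no count of it fell in anagen nuclei of cluster 7. The others of these 8 were nearest Psat1, a serine synthesis gene, Cacna1c, a calcium channel gene, Pde1a, a phosphodiesterase gene, and Rapgef5, Ndst4 and Tmem220.

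Long runs were carried by melanocyte-like nuclei. The run inside Macrod2 held 5 of the 7 eligible features in its 52589 bp and had 1439 UVB, 71 telogen and 140 anagen counts. That near Nr2f1 had 1306 UVB, 65 telogen and 145 anagen counts over 5 regions, and lay more than 430 kb from the gene. Near Vps41 all 5 eligible features of a stretch of 11125 bp were among the regions, with 747 UVB, 22 telogen and 42 anagen counts. The run near Jag1 held 5 regions with 978 UVB, 37 telogen and 129 anagen counts, and that near Adgrf1, an adhesion receptor gene, held 4 with 689 UVB, 25 telogen and 78 anagen counts.

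Genes of pigment synthesis and of melanocyte lineage control were near few of the regions, although their shares were above those among eligible features. Of 14 pigment and melanosome genes, Tyrp1, a melanosomal enzyme, was the nearest gene of 3 regions, or 0.410% of the regions against 0.188% of eligible features. One of them, 293 kb from Tyrp1 (chr4:80540850-80541350), had 439 counts in UVB, 13 in telogen and 56 in anagen. Within clusters 2 and 3 it was at 62.7 CPM in UVB, 27.5 CPM in telogen and 33.6 CPM in anagen, 2.28 times telogen (1.19 to 5.02) and 1.86 times anagen (1.18 to 3.13). Another, 491.9 kb away, was at 58.7 CPM in UVB, 76.4 CPM in telogen and 49.6 CPM in anagen there.

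Of 12 lineage regulators, Zeb2 had 3 regions, Foxd3 2 and Ednrb 1 (0.820% of the regions, 0.396% of eligible features). A region 31.3 kb from Foxd3, a neural crest transcription factor gene, had 148 counts in UVB, 6 in telogen and 10 in anagen. One 130.5 kb from Zeb2, which encodes a zinc finger factor needed in melanocytes, had 305 counts in UVB, 22 in telogen and 46 in anagen. Within clusters 2 and 3 the Zeb2 region was at 43.5 CPM in UVB, 58.0 CPM in telogen and 28.3 CPM in anagen. The Ednrb region, near the gene of an endothelin receptor of melanocytes, had 65 counts in UVB, 2 in telogen and 7 in anagen.

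Of 23 AP-1 and early response genes, Klf6 and Nr4a2 had 3 regions each and Klf4 had 1 (0.956% of the regions, 0.663% of eligible features). No FOS or JUN gene had any, but the share of these genes among eligible features is not given here. The Klf4 region, 52.8 kb from the gene of this zinc finger factor (chr4:55474137-55474637), had 232 counts in UVB, 6 in telogen and 35 in anagen. In clusters 2 and 3 it had 200 counts in UVB, 1 in telogen and 4 in anagen, or 31.7, 3.05 and 7.08 CPM. UVB was 10.4 times telogen there (1.84 to 412) and 4.48 times anagen (1.72 to 16.6). The most counted region near Nr4a2, a nuclear receptor gene, lay 697.6 kb from it and was at 73.6 CPM in UVB, 70.2 CPM in telogen and 56.6 CPM in anagen in those clusters.

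Schwann and nerve genes were near 4 regions, 3 at Sox2 and 1 at Cdh19 (0.546% of the regions, 0.137% of eligible features), all carried by melanocyte-like nuclei. Sox2 encodes a transcription factor of neural and stem cells, and its most counted region, 206.1 kb away, had 524 counts in UVB, 23 in telogen and 67 in anagen. Within clusters 2 and 3 that region was at 66.5 CPM in UVB, 36.6 CPM in telogen and 33.6 CPM in anagen. By CPM in UVB, the 3 Sox2 regions were at 63.5, 35.6 and 16.4 in Schwann-like nuclei and at 65.2, 22.0 and 13.6 in melanocyte-like nuclei. Collagen genes had 9 regions, 4 of them at Col12a1 (1.23% of the regions, 0.535% of eligible features), and the 5 most counted were carried by melanocyte-like nuclei.

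Epidermal transcription factor genes had 3 regions, at Hopx, Prdm1 and Trp63, and all were carried by melanocyte-like nuclei (0.410% of the regions, 0.237% of eligible features). Stress keratinocyte and wound genes had 2, at Ereg and Il24 (0.273% of the regions, 0.0821% of eligible features). The Prdm1 region, near the gene of a repressor of cell differentiation programs, was at 29.3 CPM in UVB, 36.6 CPM in telogen and 5.31 CPM in anagen within clusters 2 and 3. Chemokine and interleukin genes had 4 regions, 2 at Il16 and 1 each at Il15 and Il24 (0.546% of the regions, 0.513% of eligible features). Keratins, the epidermal differentiation complex, interferon and antigen presentation genes, p53 targets, NRF2 and glutathione genes, and Wnt and BMP genes had 0 regions, and their eligible features numbered 85, 72, 56, 92, 68 and 287. With 1.16% of all eligible features among the regions, lists of this size would hold few or none. These zeros thus say little about the lists.

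**Figure D4:**
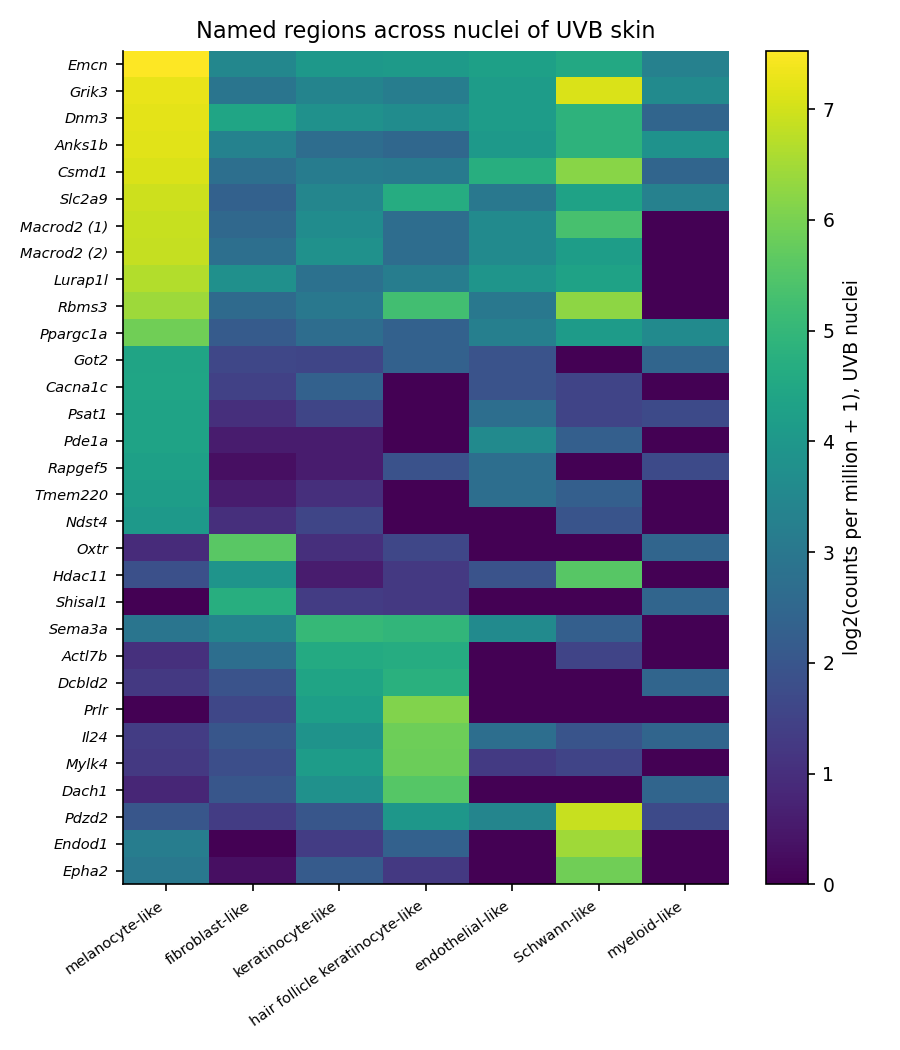
UVB level of 31 regions, named by nearest gene (y axis), in each class of nuclei (x axis), as log2(CPM + 1). Regions are ordered by the class that carries them and then by UVB counts, and those carried by melanocyte-like nuclei, from Emcn to Ndst4, are brightest in the left column.

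Fibroblast-like nuclei carried 55 regions. Their summed level in these nuclei was 865 CPM in UVB, 152 CPM in telogen and 94.7 CPM in anagen, 5.69 times telogen (4.82 to 6.75) and 9.13 times anagen (8.15 to 10.3). The interval was above 1 for 53 of 55 over telogen (background 10.3%) and for 55 of 55 over anagen (background 26.7%). Here and in the classes below, the regions were chosen on the same contrast and assigned by their UVB counts. Such shares thus carry no independent weight. Of the fibroblast-like UVB nuclei, 81.7% were in tag number 19, and without them the ratios were 3.38 (2.74 to 4.19) and 5.43 (4.57 to 6.45). Clusters 5, 8 and 11 made up the class, and cluster 5 held 127 of its 923 UVB nuclei and 895 of its 1186 anagen nuclei. Cluster 5 had a median log2 fold of 1.70 for fibroblast markers and 0.832 for pericyte and smooth muscle markers. At resolution 1.0, a cluster of 124 UVB, 106 telogen and 680 anagen nuclei was named pericyte and smooth muscle-like. No main cluster bore that name, and the overlap of that cluster with cluster 5 was not counted. A region 61.8 kb from Oxtr, the oxytocin receptor gene, had 202 counts in UVB, 10 in telogen and 24 in anagen, of which 189, 8 and 21 were in fibroblast-like nuclei. One inside Shisal1 had 101 UVB, 6 telogen and 13 anagen counts in these nuclei, and one near Hdac11, a histone deacetylase gene, had 55 UVB, 8 telogen and 11 anagen counts. The Hdac11 region had 48 UVB counts in Schwann-like nuclei, where its level was 46.2 CPM against 13.8 CPM in fibroblast-like nuclei.

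Keratinocyte-like nuclei carried 44 regions, at 873 CPM in UVB, 76.1 CPM in telogen and 409 CPM in anagen. UVB was 11.5 times telogen (9.25 to 14.4) and 2.14 times anagen (1.51 to 3.13), but the anagen value rested on 56 nuclei and 32 counts. All 44 had an interval above 1 over telogen (background 13.2%), and 0 of 44 did so over anagen (background 0.202%). In anagen, 31 of the 44 had no count in these nuclei and were given 3 counts. So had 9371 of the 22266 features with at least 20 UVB counts in these nuclei. With so few anagen counts, single regions could hardly show an interval above 1. Without tag number 19, which held 63.3% of the keratinocyte-like UVB nuclei, the ratio was 10.3 over telogen. A region 56.2 kb from Dcbld2 had 101 counts in UVB, 2 in telogen and 1 in anagen. Its largest share, 40 of the UVB counts, was in keratinocyte-like nuclei, where telogen and anagen had none. Hair follicle keratinocyte-like nuclei held 39 of its UVB counts, at 26.5 CPM against 20.0 CPM in keratinocyte-like nuclei. A region 8.10 kb from Ereg, which encodes an EGF receptor ligand, had 68 counts in UVB, 0 in telogen and 5 in anagen, at least 7.32-fold higher than telogen over all nuclei with 3 counts in place of 0. Others lay inside Sema3a, a guidance cue gene, and near Actl7b.

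Hair follicle keratinocyte-like nuclei carried 39 regions, at 1139 CPM in UVB, 133 CPM in telogen and 155 CPM in anagen. The cluster was named by a narrow margin, with a median log2 fold of 1.47 for hair follicle markers and 1.41 for keratinocyte markers, and at resolution 1.0 no cluster bore the name. UVB was 8.57 times telogen (6.57 to 11.4) and 7.37 times anagen (5.81 to 9.48). The interval was above 1 for 30 of 39 over telogen (background 8.81%) and for 33 of 39 over anagen (background 19.8%). Tag number 19 held 94.8% of these UVB nuclei, and the other 32 nuclei gave ratios of 10.2 (7.28 to 14.4) and 8.77 (6.40 to 12.1). A region 5.23 kb from Il24, a cytokine gene, had 142 counts in UVB, 6 in telogen and 19 in anagen. In the nuclei that carried it, the Il24 region was at 57.1 CPM in UVB, 4.75 CPM in telogen and 21.8 CPM in anagen. A region inside Prlr, the prolactin receptor gene, was at 68.0 CPM in UVB, 4.75 CPM in telogen and 8.71 CPM in anagen in these nuclei, and others lay near Mylk4 and Dach1.

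Schwann-like nuclei carried 17 regions, at 959 CPM in UVB, 362 CPM in telogen and 402 CPM in anagen. UVB was 2.65 times telogen (2.01 to 3.58) and 2.38 times anagen (1.84 to 3.13), and 5 of 17 had an interval above 1 over telogen (background 3.41%) and 5 of 17 over anagen (background 3.53%). Tag number 19 held 9.57% of these UVB nuclei, and the ratios without it were 2.66 and 2.39. A region inside Pdzd2 was at 117 CPM in UVB, 41.7 CPM in telogen and 32.4 CPM in anagen in Schwann-like nuclei. One 6.24 kb from Epha2, an ephrin receptor gene, was at 58.7 CPM in UVB, 48.7 CPM in telogen and 45.4 CPM in anagen, with both intervals holding 1, and another lay near Endod1.

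**Figure D5:**
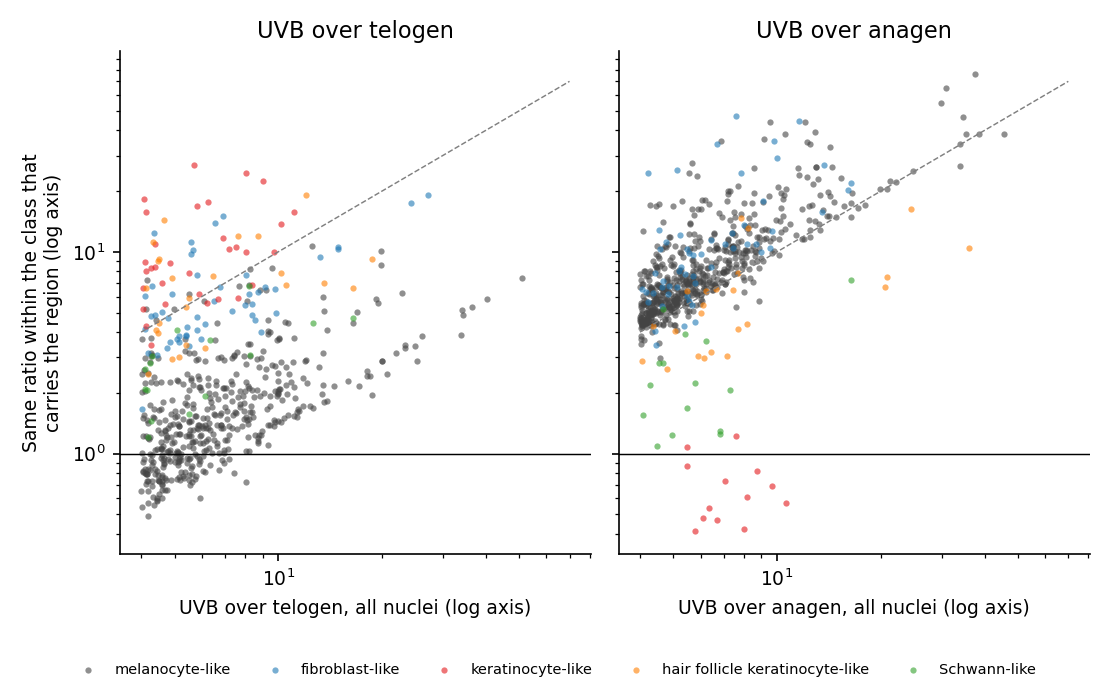
Ratio of each region over all nuclei (x axis, log axis) against the same ratio within the class that carries it (y axis, log axis), for UVB over telogen (left, 584 regions) and UVB over anagen (right, 671 regions). Colours mark the carrying class, the solid line is a ratio of 1, the dashed line marks equal ratios, and regions with no count in the other condition's carrying class are not drawn. Over telogen the 577 melanocyte-carried regions, with 3 counts in place of 0, have a median of 1.37, with 171 below 1 and 35 at 4 or more. Over anagen, where cluster 7 is part of the class, most lie above 4.

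For the melanocyte-carried regions, the ratio within all melanocyte-like nuclei was 1.48 over telogen and 7.12 over anagen. It was at least 4 for 35 of 577 over telogen and for 570 of 577 over anagen. The share over all features was not computed for this class, and the regions were chosen on the same contrast, so these counts carry no independent weight. Among regions with at least 50 UVB counts in clusters 2 and 3, 7.26% reached 4 there over telogen and 11.5% over anagen. Among all features with as many, 2.41% and 3.39% did so. The ratio over telogen was below 1 for 171 of the 577, with 3 counts in place of 0, and for none of these was the interval wholly below 1. Of the 1137 anagen melanocyte-like nuclei, 788 were in cluster 7. Summed over all the regions, not only the melanocyte-carried ones, UVB over anagen was 3.59 within cluster 7 and 1.68 within clusters 2 and 3. The part of cluster 7 in the difference between the ratios over telogen and over anagen was not tested.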

How the data were processed

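Single-nucleus chromatin accessibility was measured in 3 conditions. The deposited matrices give a count per feature and nucleus. The submitters' processing notes name Bowtie2, SAMtools, MACS2 and the builds mm10 and GRCm38, without versions or parameters; for the making of the features, filters on nuclei and the meaning of tag numbers, details were not given in the sources used here. Positions are as in the feature names. No map of UVB nuclei to technical replicates was used here.

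Counts were summed with numpy 2.4.6 and scipy 1.17.1 after keeping the deepest entry of each barcode per condition. Intervals of ratios are exact conditional binomial ones, those of shares Clopper-Pearson. Clustering used TF-IDF, 30 components without the one most correlated with depth, 15 neighbours and Leiden (leidenalg 0.10.2) at resolution 0.6, with member regions left out. Clusters were named from fixed marker lists (132 of 134 genes matched). Nearest genes are RefSeq protein-coding genes. Regions and lists were chosen with earlier results of these data known. Genes were named by rule: the 10 highest ratios, the 10 largest counts, the 5 largest runs, the 3 most counted per carrying class, members of gene lists, and 3 features on either side of the threshold. The selection rule and the ratio intervals were tested on simulated independent counts, which the real counts are not. The other steps were not simulated. Alternatives were other ways of counting barcodes, scaling, thresholds, tag numbers and clusterings; those on telogen tag numbers, on clusterings for the ratio within clusters 2 and 3, and on tag number 19 within carrying classes were chosen after seeing the data.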

Additional observations from a re-analysis of the deposited data

Results flagged for a closer look

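The X chromosome lay outside the rule, and 20 of its 1237 features with at least 50 UVB counts (1.62%) would have met it. The most counted, near Frmpd4, had 326 counts in UVB, 7 in telogen and 25 in anagen, and 5 of the 20 were nearest that gene. A feature near Ptchd1 had 96 counts in UVB, 1 in telogen and 2 in anagen. The sex of the mice in each pool was not analysed here.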

How the results depend on the processing

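The number of regions, 732, was 376 with each nucleus taken as open or closed (323 of them shared), 1661 at 3-fold, 72 at 8-fold, 1418 at a minimum of 20 UVB counts and 365 at a minimum of 100. Without tag number 19, the largest, it was 1300, of which 447 were shared, and without nuclei above 3 times the median count it was 685, of which 360 were shared. With telogen tag numbers 8 to 10 only it was 598, of which 362 were shared. Leaving out each of 15 UVB tag numbers in turn gave 586 to 1300 regions, median ratios of 4.93 to 5.19, 73.0% to 87.3% of UVB counts in melanocyte-like nuclei, and ratios within clusters 2 and 3 of 1.24 to 1.57 over telogen and 1.44 to 1.76 over anagen, where both lowest ratios were those without tag number 19. Regions were chosen anew under each setting. The median ratio was 4.91 scaled to broadly open features, 4.74 open or closed, 4.91 without the deepest nuclei and 4.81 with telogen tag numbers 8 to 10 only. The melanocyte-like share was 74.0% with every deposited barcode, 77.3% scaled to broadly open features, 84.7% open or closed, 86.6% without the deepest nuclei, 67.1% with telogen tag numbers 8 to 10, 50.9% at resolution 1.0 and 78.9% with the regions kept in the clustering. The ratio over telogen in clusters 2 and 3 was 1.96 with every barcode, 1.57 with broadly open scaling, 1.40 open or closed, 1.68 without the deepest nuclei, 2.13 with telogen tag numbers 8 to 10, 1.58 thinned and 1.43 at resolution 1.0. Over anagen it was 1.85 with broadly open scaling, 1.59 open or closed, 1.96 without the deepest nuclei, 1.74 with telogen tag numbers 8 to 10, 1.77 thinned and 1.80 at resolution 1.0. The share at gene ends was 2.32% within 2 kb and 4.23% with genes of every biotype. No direction reversed in these settings, but the regions were chosen for a higher UVB signal, which leaves little room for a reversal. The cause of each shift was not tested. No paired analysis was possible because each condition was 1 sample. Depth limits single regions most in telogen, where 220 nuclei of clusters 2 and 3 held 327426 counts.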

Other observations

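The same rule was applied with another condition on top. Of the anagen counts of the 2924 regions highest in anagen, 88.6% were in melanocyte-like nuclei, 86.7% in cluster 7 alone, which held 41.2% of all anagen counts. Of the telogen counts of the 85 regions highest in telogen, 75.3% were in myeloid-like nuclei, which held 21.3% of all telogen counts.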
